A study of Mus musculus with 18 samples.

Results

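BAFF given as a 60mer was set against BAFF given as a 3mer in mouse B cells that had first been exposed to a control antibody. The libraries were chosen by their treatment label alone, 6 of the 18 RNA-seq libraries of the series, 3 for each form of the cytokine. All 18 came from pan B cells taken from the spleens of C57BL/6 mice and kept in culture. In Ab_60mer the cells spent 1 h with 1000 ng/ml of control antibody and then 4 h with 100 ng/ml of BAFF 60mer. In Ab_3mer they had the same antibody and then the same dose and time of BAFF 3mer. Ab libraries had the antibody and no BAFF. BRFc_60mer and BRFc_3mer received mBaffR-mFc, a BAFF receptor fusion protein, in place of the antibody, before the same forms of BAFF. BRFc libraries had mBaffR-mFc and no BAFF. The labels give neither the source of the BAFF, nor the age of the mice, nor whether the 3 libraries of a group came from separate animals, so the p-values below measure only the spread between these libraries. Doses are by weight, so a given dose holds fewer 60mers than 3mers.

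BAFF is a cytokine of the tumour necrosis factor family on which mature B cells depend for survival. It is released as trimers, and trimers can assemble into a capsid-like 60mer. Its receptors are BR3 (Tnfrsf13c), TACI (Tnfrsf13b) and, on antibody-secreting cells, BCMA (Tnfrsf17). BR3 is known for the noncanonical NF-kB pathway, in which loss of TRAF3 lets the kinase NIK (Map3k14) build up and p100, the product of Nfkb2, is cut to p52, the partner of RelB. TACI is known to need ligands that cluster it and to feed the canonical pathway, in which the inhibitory IkB proteins are degraded.

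Before the genes, some properties of the libraries need stating. Library totals, recovered from the steps between low FPKM values, were 12.2, 15.1 and 17.4 M fragments (M, mega) in Ab_60mer, against 19.1, 19.0 and 21.7 M in Ab_3mer, so that the groups did not overlap in depth. Ab_3mer replicate 3 stood apart in another way. The summed FPKM (fragments per kilobase of gene and M fragments) of 6 connective tissue genes was 10.6, 8.19 and 8.14 in Ab_60mer, against 10.01, 12.9 and 0.0756 in Ab_3mer. Counts are therefore also given without Ab_3mer replicate 3 and with the library total as a term in the model. Their part in the results was not tested beyond these values. B cell markers were abundant everywhere, at a summed 3221 to 3350 FPKM for 9 genes in Ab_60mer and 3442 to 3637 FPKM in Ab_3mer.

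**Figure D1:**
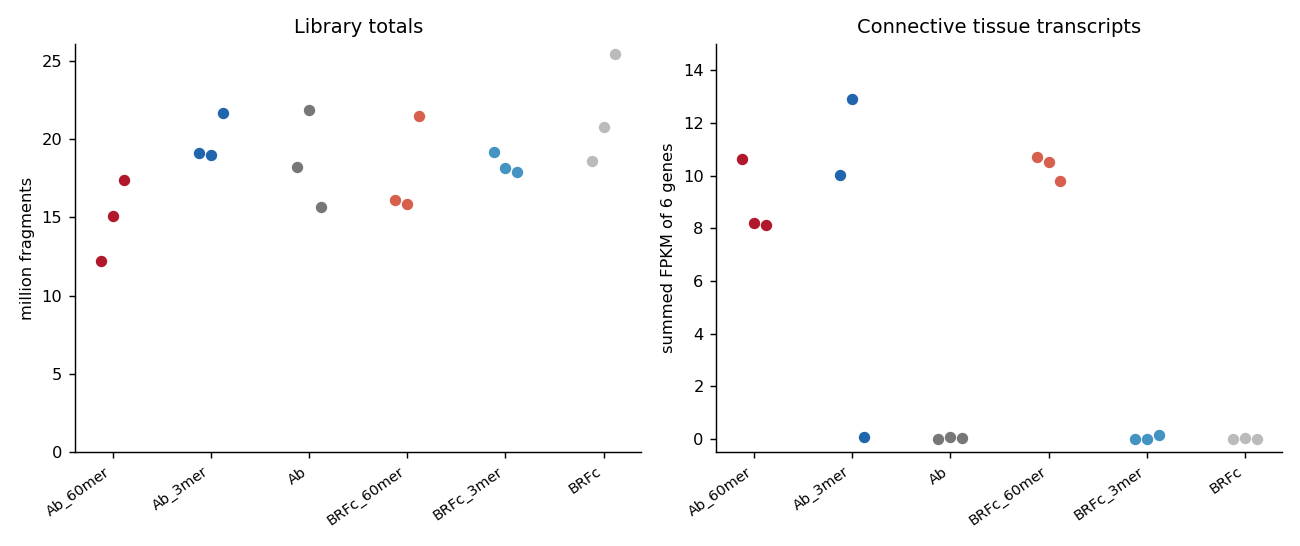
Library totals in M fragments (left) and the summed FPKM of Col1a1, Col1a2, Col3a1, Sparc, Dcn and Bgn (right), 1 point per library, in the 6 groups of the series. The 3 Ab_60mer libraries, at 12.2 to 17.4 M, lie below the 3 Ab_3mer libraries, and replicate 3 of Ab_3mer lacks the connective tissue transcripts that its other replicates carry.

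Of 11646 genes tested, 560 (4.81%) differed between BAFF 60mer and BAFF 3mer at an adjusted p under 0.05 in limma. Of these, 210 (1.80%) were higher and 350 (3.01%) lower in Ab_60mer. The differences were small. All differences below are Ab_60mer minus Ab_3mer in log2(FPKM + 1) with their standard error, unless another pair of groups is named. Their median size was 0.32 on the log2 scale among the higher and 0.30 among the lower genes, and 15 of the higher and 11 of the lower passed 1.5-fold on that scale. The libraries of the groups did not overlap for 210 of 210 higher and 349 of 350 lower genes, a pattern that 11.8% and 12.1% of all tested genes showed in the same directions. The called genes were mostly well expressed, with a median of 30.8 FPKM among the higher, 36.5 FPKM among the lower and 17.5 FPKM among all tested genes. With genes cut into 4 equal bins by expression, 7.93% of the highest bin were called at a median standard error of 0.0555, and 1.99% of the lowest bin at 0.135. Leaving out Ab_3mer replicate 3 gave 103 higher (0.884%) and 143 lower genes (1.23%), of which 102 and 139 were among the genes called with all libraries. With the library total as a term, 80 were higher (0.687%) and 85 lower (0.730%), of which 74 and 78 were among them, and all 560 kept their sign.

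**Figure D2:**
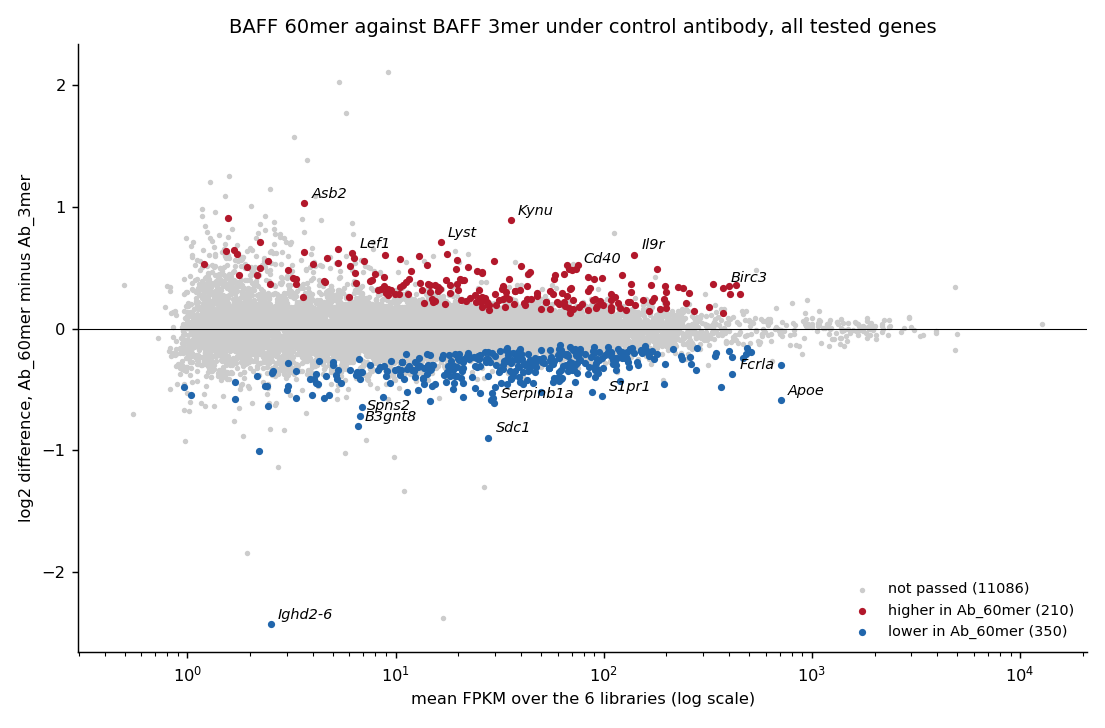
Log2 difference of Ab_60mer minus Ab_3mer for each of the 11646 tested genes against its mean FPKM over the 6 libraries (log axis). The 210 genes called higher and the 350 called lower lie mostly within 0.5 of zero, with Asb2, Kynu, Sdc1 and B3gnt8 farther out, and Ighd2-6 farthest of the called genes.

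Differences at the receptor genes were small. Tnfrsf13b, the gene of TACI, had 124, 126 and 127 FPKM in Ab_60mer, against 139, 140.0 and 144 FPKM in Ab_3mer. All Ab_60mer libraries were lower, by a log2 difference of -0.16 ± 0.042 (adjusted p = 0.0306). The call on Tnfrsf13b was lost without any 1 of the 6 libraries (adjusted p 0.0539 to 0.13). Tnfrsf13c, the gene of BR3, had 99.4, 100.3 and 93.8 FPKM in Ab_60mer, against 105, 101 and 101 FPKM in Ab_3mer, and its 95% interval of the difference was -0.15 to 0.02. Its libraries did not overlap, yet it did not pass. Tnfrsf17, the gene of BCMA, averaged 0.141 FPKM in Ab_60mer and 0.043 FPKM in Ab_3mer, below the minimum mean of 1 FPKM for a test. Here and below, fewer cells expressing a transcript and less of it per cell cannot be told apart in RNA from bulk cells.

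Within the noncanonical NF-kB pathway 3 of 10 genes rose and none fell, at a median difference of 0.10 against -0.0034 over all tested genes. The 3 were Nfkb2, Traf3 and Birc3. Over all tested genes 1.80% rose and 3.01% fell, the shares to set beside the counts of this list and those below. These shares are not matched for expression. Called genes made up 1.99% of the lowest expression bin and 7.93% of the highest, and many list members are well expressed. Birc3, which encodes the ubiquitin ligase cIAP2 that keeps NIK in check with TRAF3, had 417, 419 and 419 FPKM in Ab_60mer, against 333, 340.3 and 321 FPKM in Ab_3mer. Its groups were separated by more than the whole spread of either, with a log2 difference of 0.34 ± 0.036 (adjusted p = 4.10e-05). Nfkb2 had 142, 146 and 168 FPKM in Ab_60mer, against 118, 106 and 131 FPKM in Ab_3mer. Each Ab_60mer library was above each Ab_3mer library, with a log2 difference of 0.36 ± 0.081 (adjusted p = 0.0158). Traf3, whose protein holds NIK to its ligases, had 29.3, 28.5 and 30.2 FPKM in Ab_60mer, against 23.8, 25.1 and 24.5 FPKM in Ab_3mer. It rose by 0.25 ± 0.051 log2 units (adjusted p = 0.00843). The partner subunit and the kinase of the pathway did not pass. Relb had 72.5, 72.7 and 70.7 FPKM in Ab_60mer, against 69.03, 64.3 and 67.7 FPKM in Ab_3mer, with an interval of the difference of 0.01 to 0.19. Map3k14 averaged 35.4 ± 2.37 FPKM in Ab_60mer and 33.1 ± 1.60 FPKM in Ab_3mer (SD, n = 3 each), with overlapping libraries. All 3 calls held without Ab_3mer replicate 3 and with the library total as a term. The call on Nfkb2 was lost without Ab_60mer replicate 3 or Ab_3mer replicate 1 or 2 (adjusted p 0.0513 to 0.0702).

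Canonical subunits and inhibitors gave 3 rises and no fall among 16 genes, at a median of 0.06. Those that rose are feedback regulators that NF-kB itself is known to induce. Other regulators of the list did not pass in limma. Among them were Tnfaip3 (log2 difference 0.19 ± 0.10, adjusted p = 0.333) and Bcl3 (log2 difference 0.22 ± 0.079, adjusted p = 0.123). Nfkbid, Tnip1 and Tnip2 were below zero and did not pass either. Of the 16 genes, 11 were above zero and 5 below. Nfkbie, the gene of IkB epsilon, had 103, 99.3 and 104 FPKM in Ab_60mer, against 76.2, 78.9 and 75.7 FPKM in Ab_3mer. The gap between groups was several times the spread within them, with a log2 difference of 0.40 ± 0.041 (adjusted p = 3.03e-05). Nfkbia, the gene of IkB alpha, had 186, 192 and 189 FPKM in Ab_60mer, against 173, 153 and 151 FPKM in Ab_3mer, and rose by 0.25 ± 0.059 log2 units (adjusted p = 0.0224). Traf1, an adaptor bound to TNF receptors, had 81.99, 74.7 and 73.2 FPKM in Ab_60mer, against 62.9, 61.02 and 59.3 FPKM in Ab_3mer, a rise of 0.32 ± 0.054 log2 units (adjusted p = 0.00225). The subunits Nfkb1 and Rel did not pass. Nfkb1 had 321, 318 and 307 FPKM in Ab_60mer, against 318, 304 and 306 FPKM in Ab_3mer. Rel had 289, 295 and 257 FPKM in Ab_60mer, against 277, 282 and 232 FPKM in Ab_3mer. Both overlapped between groups, with intervals of -0.05 to 0.11 for Nfkb1 and -0.13 to 0.31 for Rel. The call on Nfkbia was lost without Ab_60mer replicate 1, 2 or 3 or Ab_3mer replicate 2 or 3 (adjusted p 0.0511 to 0.119). With the library total as a term 1 of the 3 rises, that of Nfkbie, passed.

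Promoter sequence is shown for genes of this group and of the groups below because NF-kB dimers are known to bind a 10-base element, the kappaB consensus. RefSeq promoters (GRCm38.p6), from 250 bases before to 50 bases after each gene start, were searched for the consensus on both strands, where a symmetric match can count on both and overlap itself. At least 1 match was found for 22 of 172 genes higher in Ab_60mer (12.8%), for 11 of 273 lower genes (4.03%) and for 525 of 8639 tested genes with a promoter in the table (6.08%). Counted by promoter window, 27 of 232 (11.6%) and 11 of 381 (2.89%) held it, against 565 of 10945 (5.16%) for tested genes and 4.51% of the 32851 windows of the table. These counts describe letters in a window, and a match is not a known binding site. A selection of the matches with their flanks follows on the strand of the gene, 5′ to 3′, with the 10 matching bases in capitals.
Nfkb2, chr19:46304678-46304727, plus strand: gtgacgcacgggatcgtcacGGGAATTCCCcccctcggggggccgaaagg
Nfkb2, chr19:46305685-46305734, plus strand: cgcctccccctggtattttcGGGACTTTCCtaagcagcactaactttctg
Traf3, chr12:111166340-111166369, plus strand: cgcgcgcccaggcggcccgcGGGGATTTCC
Nfkbia, chr12:55492648-55492696, minus strand: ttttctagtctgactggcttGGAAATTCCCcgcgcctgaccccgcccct
Nfkbie, chr17:45555574-45555623, plus strand: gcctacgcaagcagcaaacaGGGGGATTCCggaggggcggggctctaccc
Bcl2l1, chr2:152830930-152830967, minus strand: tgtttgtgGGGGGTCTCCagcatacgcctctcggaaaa
Il2ra, chr2:11642571-11642620, plus strand: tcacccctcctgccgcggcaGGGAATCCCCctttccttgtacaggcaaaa
Spib, chr7:44532222-44532271, minus strand: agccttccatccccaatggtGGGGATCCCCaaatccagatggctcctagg
Rel, chr11:23771032-23771081, minus strand: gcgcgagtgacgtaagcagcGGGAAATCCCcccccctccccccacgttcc
The last of these belongs to Rel, which did not pass, and Rasgrp2, which fell, also held a match, not printed, so the element was not limited to genes that rose. Nfkb2 held further matches and Ifi30, which rose, held 1, not printed either. The match of Traf3 ended 1 base before a start of the gene, and the first shown for Nfkb2 ended 30 bases before one. Of the 131 named genes that were tested, 106 had a promoter in the table.

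Genes known as NF-kB targets in B cells gave 6 rises and 1 fall among 28 tested, at a median of 0.07. Cd40, the receptor through which helper T cells stimulate B cells, had 93.8, 78.5 and 87.3 FPKM in Ab_60mer, against 62.05, 62.9 and 58.7 FPKM in Ab_3mer. Its lowest Ab_60mer library stood well above the highest Ab_3mer library, with a log2 difference of 0.49 ± 0.061 (adjusted p = 1.77e-04). Cd44, an adhesion receptor for hyaluronan, had 65.8, 68.6 and 62.6 FPKM in Ab_60mer, against 49.6, 49.99 and 48.05 FPKM in Ab_3mer, a rise of 0.41 ± 0.044 log2 units (adjusted p = 4.33e-05). Il2ra, the alpha chain of the interleukin 2 receptor, had 37.4, 37.9 and 34.8 FPKM in Ab_60mer, against 29.2, 30.2 and 26.5 FPKM in Ab_3mer, a rise of 0.35 ± 0.058 log2 units (adjusted p = 0.00204). The remaining rises were Slc2a6, a sugar transporter (log2 difference 0.40 ± 0.074, adjusted p = 0.00498), Icam1, an adhesion molecule (log2 difference 0.22 ± 0.054, adjusted p = 0.0258), and Lta, the gene of lymphotoxin alpha (log2 difference 0.45 ± 0.10, adjusted p = 0.0187). Lta was low, at 8.51, 7.09 and 6.98 FPKM in Ab_60mer, against 5.15, 5.64 and 4.83 FPKM in Ab_3mer. The fall was Gadd45a, a stress-induced growth arrest gene, at 15.9, 14.4 and 15.6 FPKM in Ab_60mer, against 19.3, 18.02 and 22.7 FPKM in Ab_3mer (log2 difference -0.36 ± 0.088, adjusted p = 0.0265). Without Ab_3mer replicate 3 the list held 4 rises and no fall, and with the library total as a term 4 and none. The call on Icam1 was lost without any 1 of the 6 libraries (adjusted p 0.0533 to 0.0894), that on Lta without Ab_60mer replicate 1 or Ab_3mer replicate 1 or 3 (adjusted p 0.0615 to 0.102), and that on Gadd45a without Ab_60mer replicate 1, 2 or 3 or Ab_3mer replicate 1 or 3 (adjusted p 0.0506 to 0.148).

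Among anti-apoptotic genes and Pim kinases 2 of 13 rose and none fell, with the highest median of the functional lists, 0.21. Bcl2l1, the gene of the survival protein Bcl-xL, had 28.4, 32.4 and 29.8 FPKM in Ab_60mer, against 22.9, 21.6 and 20.2 FPKM in Ab_3mer. Every Ab_60mer library exceeded every Ab_3mer library, with a log2 difference of 0.47 ± 0.075 (adjusted p = 0.00152). Pim2, a kinase tied to BAFF-dependent survival, had 81.5, 77.2 and 86.9 FPKM in Ab_60mer, against 57.7, 53.7 and 63.6 FPKM in Ab_3mer. It rose by 0.48 ± 0.085 log2 units (adjusted p = 0.00329). Bcl2 had 19.8, 20.2 and 22.4 FPKM in Ab_60mer, against 16.3, 16.8 and 18.2 FPKM in Ab_3mer; its libraries did not overlap, and it did not pass (adjusted p = 0.0827, interval 0.09 to 0.45). Mcl1, which B cells need to survive, averaged 326 ± 11.8 FPKM in Ab_60mer and 321 ± 12.4 FPKM in Ab_3mer (SD, n = 3 each), with an interval of -0.08 to 0.12. Both calls held without each library in turn, and with the library total as a term 3 members of the list rose.

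Pro-apoptotic genes and caspases were split, with 1 rise and 2 falls among 18 tested and a median of 0.03. Bmf, a BH3-only killer protein, had 55.2, 59.4 and 62.9 FPKM in Ab_60mer, against 72.3, 66.9 and 79.8 FPKM in Ab_3mer, with a log2 difference of -0.30 ± 0.067 (adjusted p = 0.0158). Casp6, an effector caspase, had 17.9, 18.96 and 17.9 FPKM in Ab_60mer, against 24.02, 22.3 and 24.3 FPKM in Ab_3mer, with a log2 difference of -0.35 ± 0.059 (adjusted p = 0.00238). Bid, a BH3-only protein cleaved by caspase 8, was the member that rose (log2 difference 0.22 ± 0.058, adjusted p = 0.0392), and 17.7% of its exon bases overlap Bcl2l13 on the opposite strand, whose reads could not be separated here. Bcl2l11, the gene of Bim, on which the death of B cells without BAFF depends, had 87.6, 90.9 and 88.5 FPKM in Ab_60mer, against 101, 103 and 94.5 FPKM in Ab_3mer. Its libraries did not overlap and it did not pass (adjusted p = 0.0918, interval -0.26 to -0.05). The call on Bmf was lost without Ab_60mer replicate 1 or Ab_3mer replicate 3 (adjusted p 0.0882 to 0.0979), and that on Bid without Ab_60mer replicate 1 or 2 or Ab_3mer replicate 1 or 3 (adjusted p 0.119 to 0.18). None of the 3 passed with the library total as a term.

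On log2(FPKM + 1) the largest rise of the named genes after Asb2, described below, belonged to Kynu, which encodes kynureninase, an enzyme of tryptophan breakdown. It had 46.8, 46.8 and 46.7 FPKM in Ab_60mer, against 25.5, 25.5 and 23.4 FPKM in Ab_3mer. The Ab_60mer libraries were nearly identical and far above the others, at a ratio of group means of 1.89 and a log2 difference of 0.89 ± 0.049 (adjusted p = 2.25e-08). Ab libraries, without BAFF, averaged 23.9 ± 0.781 FPKM (SD, n = 3). Il4i1, a secreted amino acid oxidase that also degrades tryptophan, had 186, 212 and 234 FPKM in Ab_60mer, against 150.5, 139.6 and 158 FPKM in Ab_3mer. It rose by 0.49 ± 0.098 log2 units (adjusted p = 0.00771), although 83.9% of its exon bases overlap Tbc1d17 on the opposite strand and the use of strand in counting is not given. No other of the 12 tested genes of tryptophan breakdown and the aryl hydrocarbon receptor passed, and their median was 0.07. Both rises held in the fits with the library total as a term and without each library in turn.

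**Figure D3:**
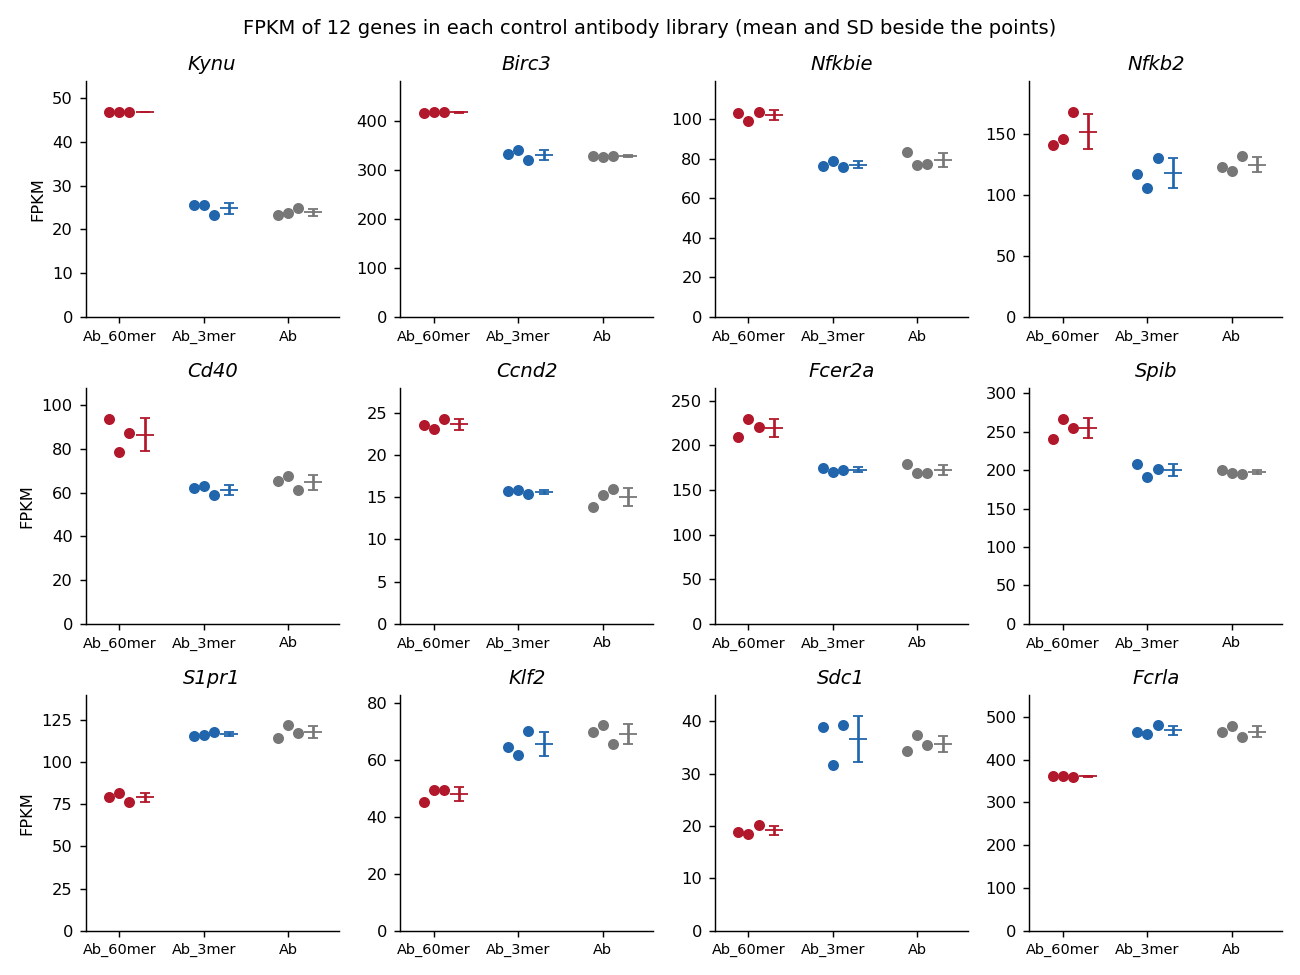
FPKM of 12 genes in each control antibody library, with BAFF 60mer (Ab_60mer), BAFF 3mer (Ab_3mer) or no BAFF (Ab); points are libraries and bars beside them the mean and SD of 3. The Ab_60mer points of Kynu, near 46.8 FPKM, lie above those of both other groups, and those of S1pr1, Klf2, Sdc1 and Fcrla lie below.

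Among genes of egress and homing 5 fell and 1 rose of 24 tested, at a median of -0.10. S1pr1, the sphingosine 1-phosphate receptor that lets lymphocytes leave lymphoid organs, had 79.05, 81.4 and 76.6 FPKM in Ab_60mer, against 115, 116 and 118 FPKM in Ab_3mer. No library came near the other group, and the difference of -0.55 ± 0.035 log2 units had the second smallest adjusted p of the named genes, 9.09e-08. Klf2, the transcription factor that induces S1pr1, had 45.3, 49.4 and 49.2 FPKM in Ab_60mer, against 64.6, 61.7 and 70.1 FPKM in Ab_3mer. It fell as well, with a log2 difference of -0.44 ± 0.062 (adjusted p = 5.35e-04). Spns2, a sphingosine 1-phosphate transporter, had 5.90, 4.73 and 4.06 FPKM in Ab_60mer, against 8.82, 9.22 and 7.80 FPKM in Ab_3mer, with a log2 difference of -0.71 ± 0.11 (adjusted p = 0.00103). For Spns2, 3.21% of the exon bases overlap Mybbp1a on the opposite strand, at a mean of 281 FPKM against 7.92 FPKM for Spns2 itself, and without strand the reads could not be separated. S1pr4, a related receptor, had 22.1, 21.4 and 27.5 FPKM in Ab_60mer, against 35.3, 30.8 and 37.5 FPKM in Ab_3mer, with a log2 difference of -0.53 ± 0.099 (adjusted p = 0.00481). S1pr1, S1pr4 and Spns2 all belong to sphingosine 1-phosphate signalling. Other tested members of that system did not pass. They were S1pr2 (log2 difference -0.12), S1pr3 (-0.28), Sphk2 (-0.19) and Sgpl1 (0.05). Itgb7, an integrin chain for homing to the gut, had 20.6, 21.4 and 26.2 FPKM in Ab_60mer, against 34.1, 31.6 and 38.1 FPKM in Ab_3mer, with a log2 difference of -0.59 ± 0.14 (adjusted p = 0.0185). The rise was in Cxcr5, the receptor that brings B cells to follicles, and was small (log2 difference 0.14 ± 0.034, adjusted p = 0.0216). Without Ab_3mer replicate 3 the list gave 4 falls and no rise, and with the library total as a term 3 falls and none. The call on Itgb7 was lost without Ab_60mer replicate 1 or 2 or Ab_3mer replicate 1 or 3 (adjusted p 0.0548 to 0.098), and that on Cxcr5 without Ab_60mer replicate 1 or 2 or Ab_3mer replicate 2 or 3 (adjusted p 0.065 to 0.0853).

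Surface markers of maturation gave 1 rise and 2 falls among 12 tested, at a median of -0.02. Fcer2a, the gene of CD23 on follicular B cells, had 209.6, 229.9 and 220.1 FPKM in Ab_60mer, against 175, 169.8 and 173 FPKM in Ab_3mer. The groups lay far apart, with a log2 difference of 0.35 ± 0.040 (adjusted p = 8.61e-05). Cd93, a marker of immature transitional cells, had 6.32, 6.16 and 5.51 FPKM in Ab_60mer, against 7.30, 7.51 and 7.13 FPKM in Ab_3mer and passed only just, with a log2 difference of -0.25 ± 0.070. This call was lost without any 1 of the 6 libraries (adjusted p 0.0757 to 0.142 in limma) and under median-of-ratios rescaling (0.057). Cd38 had 36, 40.6 and 34.7 FPKM in Ab_60mer, against 42.6, 47.3 and 46.6 FPKM in Ab_3mer, with a log2 difference of -0.29 ± 0.061 (adjusted p = 0.0107). Cr2, the gene of CD21, a known BAFF-responsive marker, had 35.4, 36.5 and 35.5 FPKM in Ab_60mer, against 31.9, 33.8 and 31.7 FPKM in Ab_3mer. It was higher in every Ab_60mer library and did not pass (adjusted p = 0.0891, interval 0.04 to 0.23). Icosl averaged 52.1 ± 1.91 FPKM in Ab_60mer and 51.4 ± 2.13 FPKM in Ab_3mer (SD, n = 3 each), with overlapping libraries. The call on Cd38 was lost without Ab_60mer replicate 1 or Ab_3mer replicate 3 (adjusted p 0.054 to 0.0573). The rise of Fcer2a was the single call of this list without Ab_3mer replicate 3, and also with the library total as a term.

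Transcription factors of B cell identity moved in both directions, 2 up and 2 down of 28 at a median of -0.01. Spib, an Ets factor of mature B cells, had 241, 267 and 256 FPKM in Ab_60mer, against 208, 192 and 202 FPKM in Ab_3mer. It rose by 0.34 ± 0.040 log2 units (adjusted p = 8.97e-05). Lef1, a factor of Wnt signalling, had 7.34, 8.33 and 7.42 FPKM in Ab_60mer, against 5.03, 4.14 and 4.85 FPKM in Ab_3mer, with a log2 difference of 0.62 ± 0.088 (adjusted p = 5.84e-04). Id3, an inhibitor of E proteins, fell, with 64.97, 63.5 and 65.5 FPKM in Ab_60mer, against 83.7, 80.8 and 85.8 FPKM in Ab_3mer and a log2 difference of -0.36 ± 0.057 (adjusted p = 0.00137). Klf2 was the other fall. The plasma cell list had 1 rise and 1 fall of 14 at a median of 0.03. Sdc1, the gene of CD138, the classical surface marker of plasma cells, had 18.8, 18.4 and 20.2 FPKM in Ab_60mer, against 39.02, 31.6 and 39.2 FPKM in Ab_3mer. All Ab_60mer libraries were far lower, at a ratio of means of 0.523 and a log2 difference of -0.90 ± 0.078 (adjusted p = 7.91e-06). Pou2af1, a coactivator of octamer-binding factors, rose, with 426, 463 and 460.3 FPKM in Ab_60mer, against 348, 342 and 369 FPKM in Ab_3mer and a log2 difference of 0.35 ± 0.051 (adjusted p = 7.62e-04). All of these calls held without each library in turn and with the library total as a term.

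Genes known from marginal zone B cells gave 2 rises and 3 falls of 22 at a median of -0.04. Asb2, a substrate receptor of a ubiquitin ligase, had 5.57, 5.46 and 4.65 FPKM in Ab_60mer, against 2.24, 1.66 and 2.28 FPKM in Ab_3mer. On log2(FPKM + 1) this was the 1 rise past 2-fold among all 210, and by the ratio of mean FPKM 6 passed it. Asb2 had a log2 difference of 1.03 ± 0.15 (adjusted p = 7.71e-04). Plxnd1, a semaphorin receptor, rose by 0.38 ± 0.064 log2 units (adjusted p = 0.00252). Rasgrp2, an activator of the GTPase Rap1, had 95.2, 96.7 and 112 FPKM in Ab_60mer, against 132, 132 and 147 FPKM in Ab_3mer, with a log2 difference of -0.43 ± 0.082 (adjusted p = 0.00541). Tm6sf1 (log2 difference -0.45 ± 0.10, adjusted p = 0.0158) and Dtx1, a regulator of Notch (log2 difference -0.24 ± 0.064, adjusted p = 0.0414), were also lower. Dtx1 was the single called gene whose libraries overlapped among those named. The call on Tm6sf1 was lost without Ab_60mer replicate 3 or Ab_3mer replicate 2 (adjusted p 0.0639 to 0.0702), and that on Dtx1 without Ab_60mer replicate 1 or 2 or Ab_3mer replicate 1 or 3 (adjusted p 0.0988 to 0.192). Asb2, Plxnd1 and Tm6sf1 were the calls of this list that also passed with the library total as a term.

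Of 16 inhibitory receptors and phosphatases, 4 fell and none rose, at a median of -0.17. Fcgr2b, the inhibitory Fc receptor for IgG, had 71.4, 74.3 and 72.5 FPKM in Ab_60mer, against 85.8, 96.6 and 101 FPKM in Ab_3mer. All Ab_60mer libraries were lower, with a log2 difference of -0.37 ± 0.063 (adjusted p = 0.00238). Dok3, an adaptor that restrains B cell receptor signals, had 66.1, 69.8 and 80.3 FPKM in Ab_60mer, against 100.1, 95.6 and 115 FPKM in Ab_3mer, with a log2 difference of -0.52 ± 0.095 (adjusted p = 0.00403). Ceacam1, an adhesion receptor, had 3.44, 3.67 and 3.06 FPKM in Ab_60mer, against 4.31, 5.23 and 5.61 FPKM in Ab_3mer and fell (log2 difference -0.46 ± 0.092, adjusted p = 0.008). Cd22, a sialic acid receptor that dampens B cell receptor signals, had 156, 159 and 165 FPKM in Ab_60mer, against 179, 179.9 and 188 FPKM in Ab_3mer, with a log2 difference of -0.19 ± 0.043 (adjusted p = 0.0183). The falls were 2 without Ab_3mer replicate 3, and with the library total as a term none passed. The call on Ceacam1 was lost without Ab_3mer replicate 3 (adjusted p = 0.0556), and that on Cd22 without Ab_60mer replicate 1 or 2 or Ab_3mer replicate 3 (adjusted p 0.0601 to 0.101).

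Components of B cell receptor signalling were evenly split, with 2 rises and 2 falls of 29 and a median of -0.05. Btk, the kinase downstream of the receptor, had 153, 156 and 148 FPKM in Ab_60mer, against 180.1, 176 and 178 FPKM in Ab_3mer, with a log2 difference of -0.23 ± 0.039 (adjusted p = 0.00289). Prkcb, which links the receptor to NF-kB, had 147, 156 and 152 FPKM in Ab_60mer, against 135, 130.2 and 132 FPKM in Ab_3mer, with a log2 difference of 0.19 ± 0.042 (adjusted p = 0.0121). Rasgrp3, an activator of Ras, was higher (log2 difference 0.20 ± 0.053, adjusted p = 0.0373), and the kinase Lyn was lower (log2 difference -0.18 ± 0.049, adjusted p = 0.0452). Btk was the only 1 of the 4 that passed without each library and with the library total as a term. The call on Prkcb was lost without Ab_60mer replicate 2 (adjusted p = 0.0579), that on Rasgrp3 without Ab_60mer replicate 1, 2 or 3 or Ab_3mer replicate 1 or 2 (adjusted p 0.0772 to 0.152), and that on Lyn without any 1 of the 6 libraries (adjusted p 0.0583 to 0.16).

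Activation and costimulation genes gave 4 rises and no fall of 20 at a median of 0.04, and the 4 were Cd40, Cd44, Icam1 and Il2ra, already described. Of 15 cytokine and chemokine genes, 2 rose, Lta and Il12a, the p35 subunit of interleukin 12. Il12a had 20.2, 21.6 and 18.3 FPKM in Ab_60mer, against 15.1, 14.5 and 15.3 FPKM in Ab_3mer, with a log2 difference of 0.40 ± 0.077 (adjusted p = 0.00627). Il12a passed and Lta did not without Ab_3mer replicate 3, and neither passed with the library total as a term. The median of the cytokine list was -0.09, with 11 of 15 members below zero, against 5960 of all 11646 tested genes. Il9r, the receptor chain for interleukin 9, was among the largest rises of all genes, with 159.7, 171 and 175 FPKM in Ab_60mer, against 107, 112 and 113 FPKM in Ab_3mer and a log2 difference of 0.61 ± 0.060 (adjusted p = 2.65e-05).

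In the G1 list 1 gene rose and 2 fell of 17, at a median of -0.02. Ccnd2, the D-type cyclin that B cells use to enter the cell cycle, had 23.5, 23.04 and 24.3 FPKM in Ab_60mer, against 15.7, 15.9 and 15.3 FPKM in Ab_3mer. The groups were clearly apart, with a log2 difference of 0.57 ± 0.066 (adjusted p = 9.38e-05). Cdkn1b, the gene of the cyclin-dependent kinase inhibitor p27, had 58.7, 67.99 and 67.1 FPKM in Ab_60mer, against 78.4, 76.5 and 84.3 FPKM in Ab_3mer, with a log2 difference of -0.30 ± 0.068 (adjusted p = 0.0175). Ccne1, a cyclin of the G1 to S transition, had 3.59, 3.06 and 2.46 FPKM in Ab_60mer, against 4.84, 5.06 and 4.69 FPKM in Ab_3mer and fell (log2 difference -0.55 ± 0.11, adjusted p = 0.00882). In the S phase and mitosis list Tk1, a thymidine kinase, was the single call of 24 (median 0.01). This share, 4.17%, was near the 4.81% over all tested genes. Tk1 had 72.01, 59.1 and 69.6 FPKM in Ab_60mer, against 50.2, 48.98 and 47.96 FPKM in Ab_3mer, with a log2 difference of 0.44 ± 0.088 (adjusted p = 0.00851). Myc had 229, 226 and 176 FPKM in Ab_60mer, against 249, 229 and 177 FPKM in Ab_3mer, overlapping between groups with an interval of -0.35 to 0.25. Of 24 genes of MYC and ribosome biogenesis, with a median of 0.06, 1 rose, Cad (log2 difference 0.24 ± 0.065, adjusted p = 0.0462). Here too the share, 4.17%, was near the 4.81% over all tested genes. The call on Cdkn1b was lost without Ab_60mer replicate 1 or Ab_3mer replicate 3 (adjusted p 0.0978 to 0.0979), that on Tk1 without Ab_60mer replicate 1 (adjusted p = 0.0524), and that on Cad without Ab_60mer replicate 2 or 3 or Ab_3mer replicate 1, 2 or 3 (adjusted p 0.101 to 0.144).

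Immediate early genes had the lowest median of the functional lists, -0.22. Of 28, 24 were below zero, against 5960 of all 11646 tested genes. Only 4 fell and 1 rose past the threshold. Plk2, an early-induced polo-like kinase, had 11.3, 12.6 and 10.7 FPKM in Ab_60mer, against 18.9, 18.3 and 16.4 FPKM in Ab_3mer, with a log2 difference of -0.59 ± 0.065 (adjusted p = 4.79e-05). Klf4, a factor that slows lymphocyte division, had 3.84, 2.93 and 3.29 FPKM in Ab_60mer, against 5.28, 5.02 and 4.49 FPKM in Ab_3mer, with a log2 difference of -0.45 ± 0.084 (adjusted p = 0.00471). Btg2, an antiproliferative gene, had 117, 122 and 114 FPKM in Ab_60mer, against 141, 138 and 138 FPKM in Ab_3mer, with a log2 difference of -0.24 ± 0.036 (adjusted p = 0.00104). Ier2 was lower as well (log2 difference -0.28 ± 0.074, adjusted p = 0.0389), while Zfp36l1, an RNA-destabilising protein, was higher (log2 difference 0.17 ± 0.035, adjusted p = 0.00908). The median was -0.28 without Ab_3mer replicate 3, with 1 rise and 4 falls, and with the library total as a term 3 falls and no rise passed. The call on Ier2 was lost without Ab_60mer replicate 1, 2 or 3 or Ab_3mer replicate 1 or 3 (adjusted p 0.0506 to 0.177).

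**Figure D4:**
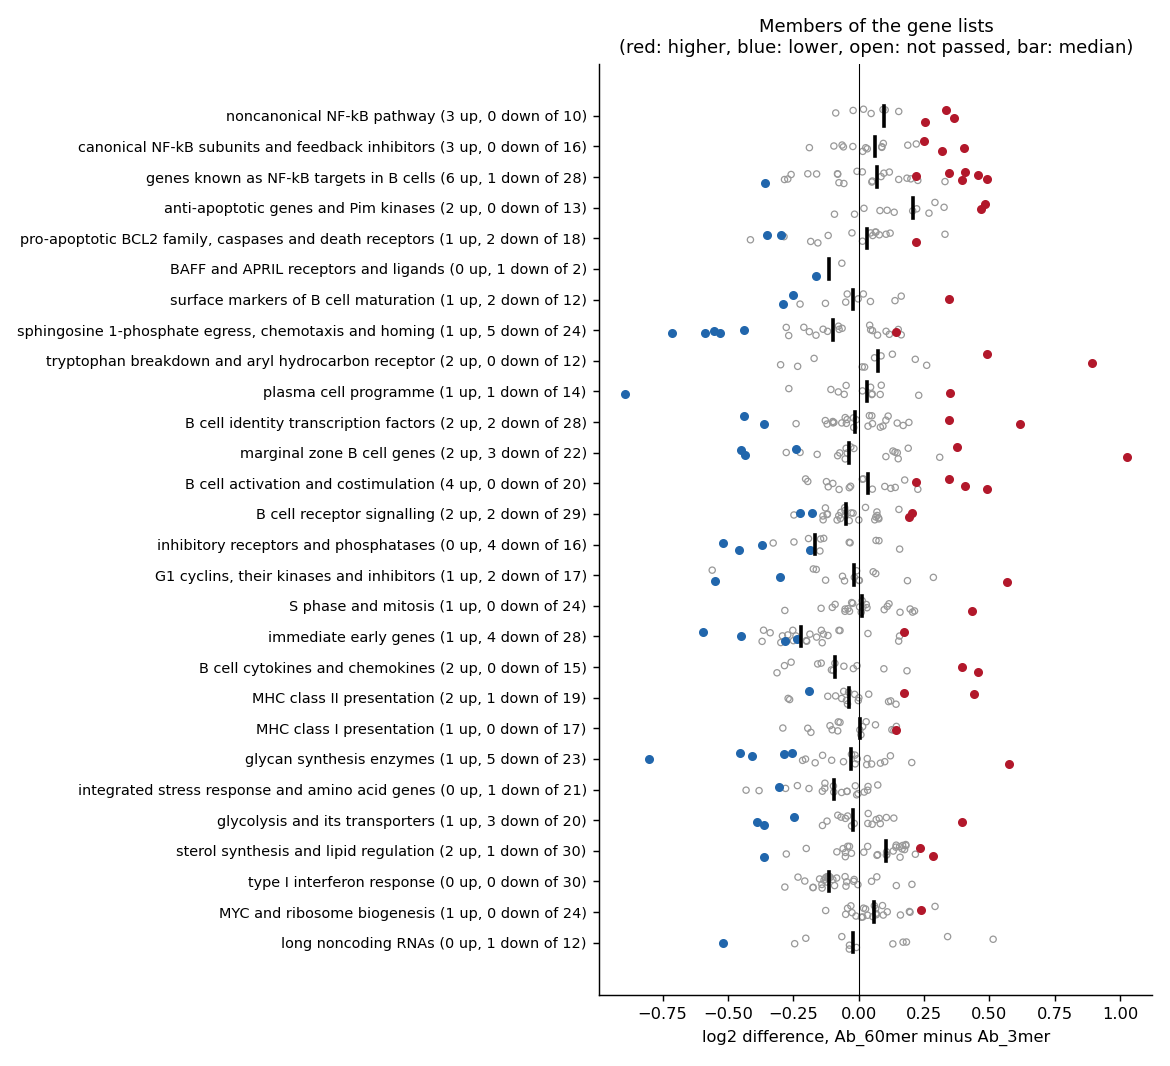
Log2 difference of Ab_60mer minus Ab_3mer for every tested member of the 28 gene lists, with called genes filled (red higher, blue lower), others open and a bar at each median. The medians run from -0.22 for immediate early genes to 0.21 for anti-apoptotic genes and Pim kinases, and most members of each list did not pass.

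Enzymes of glycan synthesis gave 5 falls and 1 rise of 23, at a median of -0.03. B3gnt8, which extends lactosamine chains, had 3.77, 4.80 and 5.03 FPKM in Ab_60mer, against 9.13, 7.44 and 9.35 FPKM in Ab_3mer. It fell with a log2 difference of -0.80 ± 0.15 (adjusted p = 0.00425). Of its exon bases, 18.1% overlap Bckdha on the opposite strand, at a mean of 21.4 FPKM against 7.72 FPKM for B3gnt8. Without strand the reads could not be separated. The B3gnt8 relatives B3gnt5 (log2 difference -0.25 ± 0.042, adjusted p = 0.00204) and B3gnt7 (log2 difference -0.41 ± 0.063, adjusted p = 0.00111) also fell. Gcnt1, which starts branched O-glycans, had 11.6, 11.5 and 11.1 FPKM in Ab_60mer, against 15.2, 15.7 and 17.1 FPKM in Ab_3mer, with a log2 difference of -0.45 ± 0.072 (adjusted p = 0.0014). Cmah, which makes the sialic acid Neu5Gc, had 65.1, 62.02 and 61.9 FPKM in Ab_60mer, against 70.98, 79.9 and 80.5 FPKM in Ab_3mer and fell (log2 difference -0.29 ± 0.059, adjusted p = 0.00908). St8sia6, a sialyltransferase, was the rise, with 12.6, 12.9 and 12.8 FPKM in Ab_60mer, against 7.64, 8.46 and 8.65 FPKM in Ab_3mer and a log2 difference of 0.57 ± 0.063 (adjusted p = 4.47e-05). Chst10, a sulfotransferase outside the list, rose as well, with 34.4, 37.01 and 35.4 FPKM in Ab_60mer, against 24.02, 24.2 and 23.3 FPKM in Ab_3mer and a log2 difference of 0.56 ± 0.065 (adjusted p = 9.52e-05). The list gave 4 falls and 1 rise without Ab_3mer replicate 3, and 3 and 1 with the library total as a term. The call on Cmah was lost without Ab_3mer replicate 3 (adjusted p = 0.0577).

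In MHC class II presentation 2 genes rose and 1 fell of 19, at a median of -0.04. Ifi30, the lysosomal thiol reductase GILT that unfolds antigens, had 140.5, 133 and 148 FPKM in Ab_60mer, against 104, 99.2 and 107 FPKM in Ab_3mer. It was clearly higher, with a log2 difference of 0.44 ± 0.059 (adjusted p = 3.63e-04). Ctss, the cathepsin that trims the invariant chain, was higher by 0.17 ± 0.043 log2 units (adjusted p = 0.0264), and H2-Ob, part of the DO complex that restrains peptide loading, was lower (log2 difference -0.19 ± 0.044, adjusted p = 0.0181). Of 17 class I genes, with a median of 0.0047, 1 rose, the chaperone Canx (log2 difference 0.14 ± 0.037, adjusted p = 0.0348). That was 5.88% of the class I list, near the 4.81% over all tested genes. None of 30 type I interferon response genes passed in limma, none had an unadjusted p under 0.05 and none passed with voom on recovered fragments. Their median was -0.11, and -0.03 without Ab_3mer replicate 3. Below zero were 26 of 30, against 5960 of all 11646 tested genes. The smallest adjusted p of the 30 belonged to Parp14 (0.318, with 47.9, 46.04 and 54.9 FPKM in Ab_60mer, against 42.4, 41.1 and 45.01 FPKM in Ab_3mer). The call on Ctss was lost without Ab_60mer replicate 1 or 3 or Ab_3mer replicate 1, 2 or 3 (adjusted p 0.0738 to 0.112), that on H2-Ob without Ab_60mer replicate 1 or Ab_3mer replicate 2 or 3 (adjusted p 0.0644 to 0.0901), and that on Canx without any 1 of the 6 libraries (adjusted p 0.051 to 0.174).

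In the metabolic lists, glycolysis and its transporters gave 1 rise, Slc2a6, and 3 falls of 20 at a median of -0.02. The falls were Aldoc (log2 difference -0.39 ± 0.095, adjusted p = 0.0264), Slc16a3, a lactate transporter (log2 difference -0.36 ± 0.096, adjusted p = 0.0392), and Pdk1, a pyruvate dehydrogenase kinase (log2 difference -0.25 ± 0.057, adjusted p = 0.0186). Sterol and lipid genes gave 2 rises and 1 fall of 30 at a median of 0.11. Fasn, the fatty acid synthase, had 97.2, 95.5 and 94.1 FPKM in Ab_60mer, against 82.5, 82.6 and 78.04 FPKM in Ab_3mer, with a log2 difference of 0.24 ± 0.055 (adjusted p = 0.0203). Lss, the lanosterol synthase, was higher (log2 difference 0.28 ± 0.076, adjusted p = 0.0411) and Mylip, which degrades the LDL receptor, was lower (log2 difference -0.36 ± 0.090, adjusted p = 0.0287). In the integrated stress response Ddit3, the gene of CHOP, was the single call of 21, whose median was -0.095 (log2 difference -0.30 ± 0.072, adjusted p = 0.0224). That was 4.76% of the stress response list, near the 4.81% over all tested genes. Without Ab_3mer replicate 3, Slc2a6 was the single call in glycolysis and none passed among the sterol and lipid genes, and with the library total as a term neither list held a call. The call on Aldoc was lost without Ab_60mer replicate 1 or 2 or Ab_3mer replicate 1 or 3 (adjusted p 0.0755 to 0.116), that on Slc16a3 without Ab_60mer replicate 1 or 3 or Ab_3mer replicate 1, 2 or 3 (adjusted p 0.0795 to 0.122), and that on Pdk1 without Ab_60mer replicate 1 or Ab_3mer replicate 3 (adjusted p 0.0965 to 0.0969). The call on Fasn was lost without Ab_60mer replicate 1 or 2 or Ab_3mer replicate 3 (adjusted p 0.0593 to 0.105), that on Lss without Ab_60mer replicate 1, 2 or 3 or Ab_3mer replicate 1 or 3 (adjusted p 0.054 to 0.171), that on Mylip without Ab_60mer replicate 1, 2 or 3 or Ab_3mer replicate 3 (adjusted p 0.0547 to 0.156), and that on Ddit3 without Ab_60mer replicate 2 or 3 or Ab_3mer replicate 1 or 2 (adjusted p 0.0725 to 0.101).

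Several of the largest differences lay outside these lists. Lyst, the lysosomal trafficking regulator, had 21.7, 20.5 and 19.6 FPKM in Ab_60mer, against 12.2, 13.2 and 11.3 FPKM in Ab_3mer, with a log2 difference of 0.71 ± 0.095 (adjusted p = 3.63e-04). Nid1, a basement membrane glycoprotein, had 6.34, 7.08 and 6.62 FPKM in Ab_60mer, against 3.70, 3.60 and 4.41 FPKM in Ab_3mer, with a log2 difference of 0.65 ± 0.079 (adjusted p = 1.37e-04). Pikfyve, a lipid kinase of endosomes, had 80.9, 79.8 and 74.5 FPKM in Ab_60mer, against 50.03, 58.5 and 54.5 FPKM in Ab_3mer, with a log2 difference of 0.52 ± 0.052 (adjusted p = 2.67e-05). All 3 were higher in every Ab_60mer library. Ticam2, an adaptor of Toll-like receptor 4, rose by 0.58 ± 0.082 log2 units (adjusted p = 5.84e-04), and shares 14.5% of its exon bases with Tmed7 on the same strand. Zbtb46 rose by 0.60 ± 0.093 log2 units (adjusted p = 0.00112), Nav2 by 0.71 ± 0.12 log2 units (adjusted p = 0.00225) and Inka1 by 0.56 ± 0.11 log2 units (adjusted p = 0.00904). Colca2 (log2 difference 0.61 ± 0.14, adjusted p = 0.0158), Tmem120b (log2 difference 0.60 ± 0.15, adjusted p = 0.026), Usp50 (log2 difference 0.64 ± 0.18, adjusted p = 0.0481) and Megf11 (log2 difference 0.64 ± 0.15, adjusted p = 0.0235) rose too. Of the exon bases of Tmem120b, 18.3% overlap Rhof on the opposite strand, at a mean of 27.5 FPKM against 8.39 FPKM for Tmem120b. By the ratio of mean FPKM, Nav2 (2.08), Usp50 (2.09) and Megf11 (2.11) stood above Kynu, at low levels that log2(FPKM + 1) compresses. Of these, Megf11 had 2.10, 2.16 and 1.95 FPKM in Ab_60mer, against 1.21, 0.923 and 0.823 FPKM in Ab_3mer. The call on Colca2 was lost without Ab_60mer replicate 1 or Ab_3mer replicate 1 or 3 (adjusted p 0.0691 to 0.0894), that on Tmem120b without Ab_60mer replicate 1 or 2 or Ab_3mer replicate 2 (adjusted p 0.082 to 0.103), that on Usp50 without Ab_60mer replicate 1 or 2 or Ab_3mer replicate 1, 2 or 3 (adjusted p 0.0805 to 0.178), and that on Megf11 without Ab_60mer replicate 1 or 2 or Ab_3mer replicate 2 or 3 (adjusted p 0.065 to 0.109).

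On the falling side, Serpinb1a, an inhibitor of granule proteases, had 24.6, 22.7 and 22.5 FPKM in Ab_60mer, against 34.3, 37.9 and 36.3 FPKM in Ab_3mer, with a log2 difference of -0.62 ± 0.065 (adjusted p = 4.04e-05). Hepacam2 had 4.54, 5.73 and 5.18 FPKM in Ab_60mer, against 8.75, 7.83 and 9.24 FPKM in Ab_3mer, with a log2 difference of -0.64 ± 0.10 (adjusted p = 0.0014). Fcrla, an Fc receptor-like protein kept inside B cells, had 361, 362 and 360.4 FPKM in Ab_60mer, against 465, 460.0 and 480.1 FPKM in Ab_3mer. Its Ab_60mer libraries agreed closely and lay far below the others, with a log2 difference of -0.37 ± 0.040 (adjusted p = 4.04e-05). Neat1, a long noncoding RNA of nuclear paraspeckles and the single call of 12 such RNAs (median -0.02), had 40.2, 40.4 and 42.3 FPKM in Ab_60mer, against 54.5, 55.9 and 67.8 FPKM in Ab_3mer, with a log2 difference of -0.52 ± 0.099 (adjusted p = 0.00554). Mxd4, a repressor that competes with MYC for MAX, fell with a log2 difference of -0.56 ± 0.098 (adjusted p = 0.00289). Apoe, the lipid carrier apolipoprotein E, was abundant at 477, 537 and 682 FPKM in Ab_60mer, against 829.8, 712 and 1005 FPKM in Ab_3mer, with a log2 difference of -0.59 ± 0.15 (adjusted p = 0.0318). Plaur, the urokinase receptor, had 24.8, 25.5 and 20.1 FPKM in Ab_60mer, against 35.3, 38.3 and 31.8 FPKM in Ab_3mer, with a log2 difference of -0.57 ± 0.13 (adjusted p = 0.0171). Stac2 (log2 difference -0.54 ± 0.11, adjusted p = 0.0105), the calcium channel gene Cacna1i (log2 difference -0.52 ± 0.12, adjusted p = 0.021) and Rflnb (log2 difference -0.57 ± 0.14, adjusted p = 0.0235) also fell. The call on Apoe was lost without Ab_60mer replicate 1 or 2 or Ab_3mer replicate 1 or 3 (adjusted p 0.0822 to 0.164), that on Plaur without Ab_60mer replicate 3 or Ab_3mer replicate 1 or 2 (adjusted p 0.0562 to 0.0668), that on Stac2 without Ab_60mer replicate 1 or Ab_3mer replicate 3 (adjusted p 0.0579 to 0.0592), that on Cacna1i without Ab_60mer replicate 1 or 2 or Ab_3mer replicate 1 or 3 (adjusted p 0.0509 to 0.111), and that on Rflnb without Ab_60mer replicate 1 or Ab_3mer replicate 1 or 3 (adjusted p 0.0556 to 0.119).

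Among the falls, 2 rest on very few fragments. Ighd2-6, a diversity segment of the immunoglobulin heavy chain with 17 exon bases, was listed at 0 in all Ab_60mer libraries, against 3.08, 9.31 and 2.71 FPKM in Ab_3mer, which were 1, 3 and 1 fragments. It also read 0 in all Ab libraries, and no fold is given. Rpl27-ps3, a processed pseudogene whose reads may come from a near-identical copy, had 1.21, 0.279 and 2.18 FPKM in Ab_60mer, against 3.20, 3.33 and 3.01 FPKM in Ab_3mer. The call on Rpl27-ps3 was lost without Ab_60mer replicate 1 or 2 or Ab_3mer replicate 1, 2 or 3 (adjusted p 0.0894 to 0.149).

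Markers of other cell types were also present, at sums below those of the B cell markers. Some were not low, as Lyz2 averaged 110 FPKM and Pecam1 62.0 FPKM over the 18 libraries. Endothelial markers summed to 56.2 to 58.4 FPKM in Ab_60mer and 60.5 to 64.4 FPKM in Ab_3mer. Most of that was Pecam1, which did not pass. None of 12 NK cell, 4 T cell, 7 neutrophil or 6 platelet and megakaryocyte markers tested passed in limma, and their medians were -0.08, -0.08, -0.16 and -0.17. At an unadjusted p under 0.05 there were 1, 0, 1 and 2 of them, and none passed with voom. NK markers summed to 161 to 163 FPKM in Ab_60mer and 166 to 175 FPKM in Ab_3mer. T cell markers summed to 45.4 to 49.5 FPKM in Ab_60mer and 49.9 to 54.4 FPKM in Ab_3mer, most of it Lck, and 8 of the 12 genes, Cd3e and Cd4 among them, averaged under 1 FPKM. Monocyte and macrophage markers summed to 164 to 180 FPKM in Ab_60mer and 178 to 189 FPKM in Ab_3mer, with 1 fall of 9, Cd14 (log2 difference -0.34 ± 0.086, adjusted p = 0.0324). Dendritic cell markers summed to 20.2 to 23.8 FPKM in Ab_60mer and 15.6 to 17.1 FPKM in Ab_3mer, and the gap was Zbtb46, at 16.9, 15.9 and 14.7 FPKM in Ab_60mer, against 11.03, 10.2 and 9.27 FPKM in Ab_3mer, the only 1 of 4 tested that passed. Of 9 B cell markers 2 fell, Cd22 and Fcrla, and none rose. The part of these cells in the gene lists was not tested. The call on Cd14 was lost without any 1 of the 6 libraries (adjusted p 0.051 to 0.126).

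The same comparison of BAFF forms was made in the mBaffR-mFc libraries, which share none with those above. Both comparisons use the same residual variance of each gene, estimated over all groups, so their calls are not independent. There 601 genes (5.16%) were called, 239 (2.05%) higher and 362 (3.11%) lower in BRFc_60mer than in BRFc_3mer. Of the 210 genes higher in Ab_60mer, 203 (96.7%) had a positive difference under mBaffR-mFc, where 44.6% of all tested genes did, and 112 (53.3% of the 210, 46.9% of the 239) were called. Of the 350 lower genes, 341 (97.4%) had a negative difference, as did 55.4% of all tested genes, and 198 (56.6% of the 350, 54.7% of the 362) were called. None was called in the opposite direction. The median difference of the 210 was 0.32 under control antibody and 0.22 under mBaffR-mFc, and that of the 350 was -0.30 under control antibody and -0.24 under mBaffR-mFc. Since these genes were picked for their size under control antibody, the smaller medians in libraries that did not pick them are a description. All BRFc_60mer libraries and no BRFc_3mer library carried connective tissue transcripts, at 9.79 to 10.7 summed FPKM against at most 0.131, so that form and carriage cannot be told apart there. Library totals there overlapped, at 15.9 to 21.5 M fragments in BRFc_60mer and 17.9 to 19.2 M in BRFc_3mer.

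For single genes the values were often close to those under control antibody. Kynu had 44.4, 46.6 and 43.2 FPKM in BRFc_60mer, against 23.2, 23.1 and 25.6 FPKM in BRFc_3mer, with a log2 difference of 0.87 ± 0.049. S1pr1 had 83.7, 82.7 and 81.8 FPKM in BRFc_60mer, against 118, 117 and 119.5 FPKM in BRFc_3mer, a difference of -0.51 ± 0.035. Birc3 differed by 0.36 ± 0.036, Nfkb2 by 0.43 ± 0.081, Spib by 0.39 ± 0.040 and Fcrla by -0.40 ± 0.040. All of these were called under both pretreatments. Cr2, which missed the threshold under control antibody, was called under mBaffR-mFc, with 37.5, 40.97 and 39.1 FPKM in BRFc_60mer, against 31.6, 30.96 and 31.2 FPKM in BRFc_3mer (log2 difference 0.32 ± 0.045, adjusted p = 6.25e-04), and so was Tnfrsf13c (log2 difference -0.19 ± 0.039, adjusted p = 0.00787). Sterol and lipid genes had 9 rises of 30 there, against 2 under control antibody, and the difference between these counts was not tested. Gene by gene, neither Cr2, Tnfrsf13c nor any sterol and lipid gene passed the interaction test given below.

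**Figure D5:**
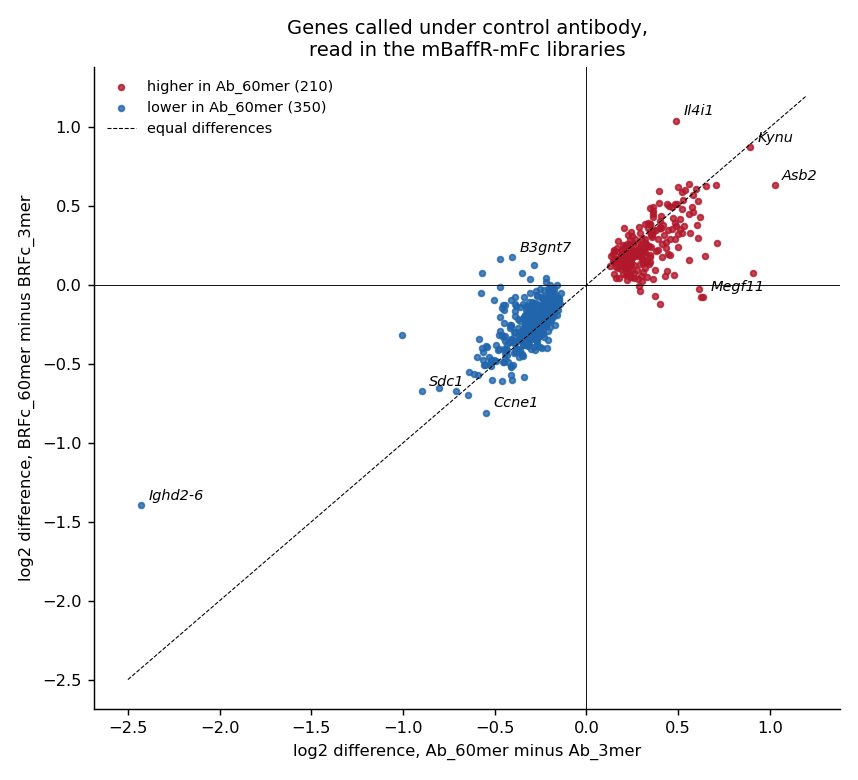
For the 560 genes called under control antibody, the log2 difference of the BAFF forms under control antibody (horizontal) and under mBaffR-mFc (vertical), with a dashed line of equal differences. The 203 of 210 and 341 of 350 genes that keep their sign lie at the upper right and lower left, and B3gnt7 and Megf11 lie outside them.

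Whether the difference between the forms depended on the pretreatment was tested by the interaction, and 2 genes (0.0172%) passed in limma, with 488 of 11646 at an unadjusted p under 0.05. B3gnt7 had 10.8, 11.99 and 11.8 FPKM in Ab_60mer, against 16.8, 15.7 and 14.3 FPKM in Ab_3mer, and 17.9, 18.5 and 16.97 FPKM in BRFc_60mer, against 15.5, 16.5 and 14.8 FPKM in BRFc_3mer. The sign of the difference was thus opposite under the pretreatments, with an interaction of -0.58 ± 0.089, adjusted p = 0.0298. Spp1, the gene of osteopontin, had 2, 2.37 and 2.27 FPKM in Ab_60mer, against 4.04, 3.32 and 2.30 FPKM in Ab_3mer, and 4.45, 5.40 and 5.57 FPKM in BRFc_60mer, against 1.72, 1.45 and 2.001 FPKM in BRFc_3mer. Its interaction was -1.55 ± 0.20, adjusted p = 0.00615. Connective tissue transcripts also differed across these groups, at 8.14 to 10.6 summed FPKM in Ab_60mer, against 10.01, 12.9 and 0.0756 FPKM in Ab_3mer, and 9.79 to 10.7 FPKM in BRFc_60mer, against at most 0.131 FPKM in BRFc_3mer. Within Ab_3mer, Spp1 was lowest in replicate 3, where these were near 0; it was low in BRFc_3mer, where they were near 0, and low in Ab_60mer, where they were present. Their part in the interaction was not tested. Without Ab_3mer replicate 3 the interaction of Spp1 was -1.71 (adjusted p = 2.31e-04). The call on B3gnt7 was lost without Ab_60mer replicate 1, 2 or 3, Ab_3mer replicate 1 or 2, BRFc_60mer replicate 1 or 2 or BRFc_3mer replicate 1 or 3 (adjusted p 0.0516 to 0.155), and that on Spp1 held without each library. The next smallest p-values belonged to Casp6 (-0.43 ± 0.084, adjusted p = 0.397), Tmem175 (0.49 ± 0.10, adjusted p = 0.532), Tes (-0.34 ± 0.079, adjusted p = 0.849) and Ly6d (0.33 ± 0.081, adjusted p = 0.849), none of which passed, and 35.3% of the exon bases of Tmem175 overlap Dgkq. Il4i1, which differed by 0.49 ± 0.098 log2 units under control antibody and by 1.04 ± 0.098 under mBaffR-mFc, did not pass either (-0.55 ± 0.14, adjusted p = 0.849).

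Levels without BAFF serve as the background. Ab libraries averaged 118 ± 3.73 FPKM for S1pr1, 35.7 ± 1.54 FPKM for Sdc1, 329 ± 1.54 FPKM for Birc3 and 79.2 ± 3.46 FPKM for Nfkbie (SD, n = 3). The comparisons of each form with no BAFF share the Ab libraries and are given only side by side. In limma 1628 genes were called between Ab_60mer and Ab, 587 higher (5.04%) and 1041 lower (8.94%), and 0 (0.00%) in either direction between Ab_3mer and Ab, where 632 had an unadjusted p under 0.05 and voom on recovered fragments called 0 as well. The 1628 calls became 756 without Ab_60mer replicate 1, 983 without Ab_60mer replicate 2 and 624 with the library total as a term, and 1 gene was called between Ab_3mer and Ab without Ab_3mer replicate 3. All Ab_60mer libraries carried the connective tissue transcripts and no Ab library did (at most 0.0569 summed FPKM), so that BAFF 60mer and carriage cannot be told apart in that comparison. On the log2 scale Kynu differed from Ab by 0.94 with the 60mer and 0.05 with the 3mer, Cd40 by 0.41 and -0.08, Ccnd2 by 0.62 and 0.06, and S1pr1 by -0.57 and -0.02. For these 4 genes the 60mer differences passed and those of the 3mer did not. They were named with their difference between the forms known. The same Ab_60mer and Ab_3mer libraries enter here, so this pattern is a description and no separate evidence. Rel stood at a log2 difference from Ab of 0.29 with the 60mer and 0.20 with the 3mer, and Myc at 0.17 and 0.21, none of which passed (adjusted p 0.0746 to 0.885).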

How the data were processed

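RNA of the 18 libraries was sequenced by a company that, per the labels, also computed the deposited values, FPKM. The aligner, counting tool, genome build and use of strand are not given in the sources used here. The table held 35275 gene IDs, of which 34490 matched GENCODE M21. Library totals were recovered as those at which the authors' FPKM give whole fragments. At them 88.4 to 89.4% of values under 500 fragments, over genes with 1 transcript, were whole (tolerance 0.1).

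Values were taken as log2(FPKM + 1), which understates differences of low genes. Genes averaging 1 FPKM or more across the 18 libraries, 11646 in number, were fitted with limma 3.58.1 in R 4.3.3, with a trend in the variance and 1 residual variance per gene over 6 groups. A gene was called at a Benjamini-Hochberg adjusted p under 0.05, and differences carry their standard error. Libraries were grouped by the treatment label, and replicate numbers follow accession order. No pair of replicates agreed within sampling noise over 800 genes (mean chi-square per gene 1.98 to 4.92).

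The groups, gene lists and genes named were chosen with earlier results of these data known. Named were 28 panel genes, up to 20 rises and 20 falls without overlap and with at least 2 FPKM in the higher group, up to 6 called members of each list, the 2 smallest p-values of a list with none, and the 6 smallest of the interaction. Il4i1 in the interaction was added after its values were seen, and some named genes are left out for length. As alternatives, 0.1 was taken as pseudocount, the filter was dropped or set at 5 FPKM, libraries were weighted by quality or rescaled by median of ratios, the compared groups were fitted alone, and each library was left out. Added after seeing the data were the log2 library total as a term and voom on recovered fragments. The steps were tested on simulated data. Between Ab_60mer and Ab_3mer, 48.2% of simulated 1.25-fold changes were recovered, 72% of 1.5-fold and 89% of 2-fold changes. For the interaction these were 22.4%, 55.1% and 79.9%. A gene that did not pass is therefore not shown to be unchanged. Figures were drawn with matplotlib 3.10.9.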

Additional observations from a re-analysis of the deposited data

Results flagged for a closer look

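Both genes here were picked out because the difference between BAFF 60mer and BAFF 3mer itself differed between control antibody and mBaffR-mFc in the interaction test of limma. B3gnt7, an enzyme that extends lactosamine chains, had an interaction of -0.58 (adjusted p = 0.0298), with a difference of -0.41 ± 0.063 under control antibody and 0.18 ± 0.063 under mBaffR-mFc. Spp1, the gene of osteopontin, had an interaction of -1.55 (adjusted p = 0.00615), with a difference of -0.37 ± 0.14 under control antibody and 1.17 ± 0.14 under mBaffR-mFc. Spp1 was low, at 2.21 ± 0.190 FPKM in Ab_60mer and 3.22 ± 0.876 FPKM in Ab_3mer (SD, n = 3 each). Connective tissue transcripts differed across the same groups, at 8.14 to 10.6 summed FPKM in Ab_60mer, against 10.01, 12.9 and 0.0756 FPKM in Ab_3mer, and 9.79 to 10.7 FPKM in BRFc_60mer, against at most 0.131 FPKM in BRFc_3mer, and their part in the interaction of Spp1 was not tested. With groups of 3, no test for outlying libraries was run on single genes.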

How the results depend on the processing

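With 210 genes higher and 350 lower in Ab_60mer than in Ab_3mer, the fit of those groups alone gave 98 and 154, the library total as a term 80 and 85, and no filter on low values 222 lower. Leaving out each library gave 103 to 178 higher and 143 to 302 lower. Under mBaffR-mFc, 601 calls became 1318 with quality weights, 287 with the groups alone and 233 to 543 without single libraries. The interaction gave 2 genes, 1 at a minimum mean of 5 FPKM or with the library total, 0 with the groups alone (524 at an unadjusted p under 0.05) and 1 to 4 without single libraries. Between Ab_60mer and Ab, 1628 calls became 624 with the library total and 756 to 1798 without single libraries that received BAFF. Between Ab_3mer and Ab, 0 became 1 with no filter on low values and 0 to 1 without such libraries. With the library total as a term Nfkb1 read -0.017 and Rel -0.077. Without single libraries the difference ran from -0.0015 to 0.15 for Rel, -0.0053 to 0.050 for Mcl1, -0.011 to 0.052 for Icosl, -0.19 to 0.072 for Myc, -0.38 to 0.94 for Col3a1 and -0.054 to 0.033 for Tes; none of these was called. Of 104 named calls, 42 passed under all of the 14 alternatives that gave them a value. Only 90 of the 104 had a value at a minimum mean of 5 FPKM. With the library total 55 did not pass, with the groups alone 37 and without Ab_3mer replicate 3, 36. Median-of-ratios rescaling moved the median of all genes to 0.0012 from -0.0034. Causes were not tested beyond the fewer libraries or genes these fits use. No paired analysis was run, because the labels state no pairing and give no replicate numbers. In accession order, Myc and Rel were lowest in replicate 3 of both Ab_60mer and Ab_3mer. Whether replicates form sets across groups was not tested. The median standard error was 0.135 in the lowest expression bin and 0.0555 in the highest, and the part of depth in this was not tested.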
